A study of Danio rerio with 16 samples.

Results

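dre-miR-144 and dre-miR-451 are the erythroid pair of clustered miRNAs on the zebrafish array, and they were followed here through development and valproic acid exposure. They were taken as the scanner rows whose gene name equals either name, which gave 2 of the 245 zebrafish miRNA names on the array. Both belong to the 178 names that were bright enough to test. The arrays carried total RNA of wild-type TL embryos, and no label adds an allele or a transgene. From 4 hours post-fertilization (hpf) embryos sat either in ethanol, the vehicle, or in VPA. VPA, valproic acid, is a drug against seizures and a histone deacetylase inhibitor. The 4 groups were vehicle at 48 hpf, VPA at 48 hpf, vehicle at 96 hpf and VPA at 96 hpf, each with 4 arrays. The dose and the number of embryos behind an array are not in the labels, nor is whether replicates came from separate clutches, and the p-values therefore reflect array-to-array spread that may be technical.

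In vertebrates the cluster of miR-144 and miR-451 is transcribed as a shared primary transcript in red blood cell precursors, where the factor GATA1 switches it on. miR-144 is cut to its mature form by Dicer, whereas the short hairpin of miR-451 bypasses Dicer and is sliced by the Argonaute protein Ago2. In zebrafish miR-451 is known for promoting the maturation of red cells, and miR-144 for restraining embryonic alpha-globin through the factor Klfd. The array holds miRNAs only, so the erythroid label could not be set against globin messengers.

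The array reads each miRNA with a pair of probes that differ by 1 base. The longer is the reverse complement of the whole sequence given below, and the shorter lacks the base that pairs with base 1 of the miRNA. They are shown because everything measured here is hybridization to these letters. Capitals mark the probe bases that pair with the seed, bases 2 to 8 of the miRNA, by which it finds its targets.
miR-144 20-base probe: agtacatcatctATACTGTa
miR-144 19-base probe: agtacatcatctATACTGT
miR-451 22-base probe: aactcagtaatggtAACGGTTt
miR-451 21-base probe: aactcagtaatggtAACGGTT
Read back as RNA, the complements of the longer probes give the miRNA sequence each one captures, with the seed in capitals.
miR-144: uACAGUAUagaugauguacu
miR-451: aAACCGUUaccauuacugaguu
The seeds differ, and the longest run the 2 sequences share is 4 bases. Among the other 244 zebrafish names, 0 carried either 7-base seed within the first 10 bases. The 6-base core of the miR-144 seed recurred in miR-101b and miR-2184, and that of miR-451 in 0 names. The longest run shared with any other zebrafish name was 7 bases for miR-144 and 6 for miR-451. The other names were read from their probes too, and a probe shorter than its miRNA can lack the seed. These counts and runs are therefore lower limits.

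Per the array annotation, which is on danRer6 (Zv8), both lie on the minus strand of chromosome 5. The 20-base miR-144 probe was placed at chr5:41284130-41284148 and the 22-base miR-451 probe at chr5:41283987-41284007, each span 1 base shorter than its probe, with 122 bases between the spans. In the RefSeq annotation of GRCz12tu, another assembly whose coordinates are not used here, the genes mir144 and dre-mir-451a are direct neighbours with 0 genes between them. The gene on the far side of the pair is the T-box gene tbx16l at one end and LOC137495623 at the other.

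Each probe had 20 spots per array. The longer probe was the brighter for both miRNAs and stands for them below. All of its spots that were kept lay above background by the scanner's own test, and 0 were saturated. The margin differed: miR-144 lay 1.65 to 8.10 times above the dimmest signal called well above background on its array, and miR-451 15.2 to 80.4 times. Levels below are multiples of the array's own 75th percentile of signal, and changes are differences of their log2. The 2 probes differ in sequence, so a level of one miRNA says nothing against a level of the other.

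The level of miR-144 fell with age in both arms, and VPA did not move it past the threshold at either time. In vehicle embryos at 48 hpf miR-144 measured 0.262, 0.306, 0.3001 and 0.317 in replicates 1 to 4. In VPA embryos at 48 hpf it measured 0.198, 0.280, 0.280 and 0.238. The ranges overlap, with VPA replicates 1 and 4 below every vehicle array. At 96 hpf vehicle arrays gave 0.174, 0.202, 0.186 and 0.184, a narrow band below every 48 hpf array but VPA replicate 1. VPA arrays at 96 hpf gave 0.145, 0.175, 0.193 and 0.0668. Replicate 4 stood far below the other 3, close to the floor of 0.0648 that was set for dim signal, and without a floor it read 0.0611. On the log2 scale the vehicle means were -1.76 ± 0.12 (SD, n = 4) at 48 hpf and -2.43 ± 0.09 at 96 hpf, and the VPA means -2.02 ± 0.24 and -2.90 ± 0.69.

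miR-451 was high at 48 hpf, low at 96 hpf, and less low at 96 hpf in VPA embryos. In vehicle embryos at 48 hpf its level was 3.33, 3.18, 3.005 and 3.24. In VPA embryos of that age it was 2.83, 3.22, 3.33 and 3.17, which overlaps the vehicle values. Vehicle embryos at 96 hpf gave 1.37, 1.35, 1.33 and 1.22. VPA embryos at 96 hpf gave 1.79, 1.90, 1.91 and 1.51, every array above every vehicle array of that age and below every 48 hpf array. The log2 means were 1.67 ± 0.06 (SD, n = 4) and 1.65 ± 0.10 at 48 hpf, and 0.40 ± 0.07 and 0.82 ± 0.16 at 96 hpf. Ordered by mean, both miRNAs ran from vehicle to VPA at 48 hpf, but at 96 hpf miR-144 was lowest in VPA and miR-451 lowest in vehicle embryos. Each neighbouring pair of groups overlapped for miR-144. For miR-451 only the 48 hpf groups did.

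**Figure D1:**
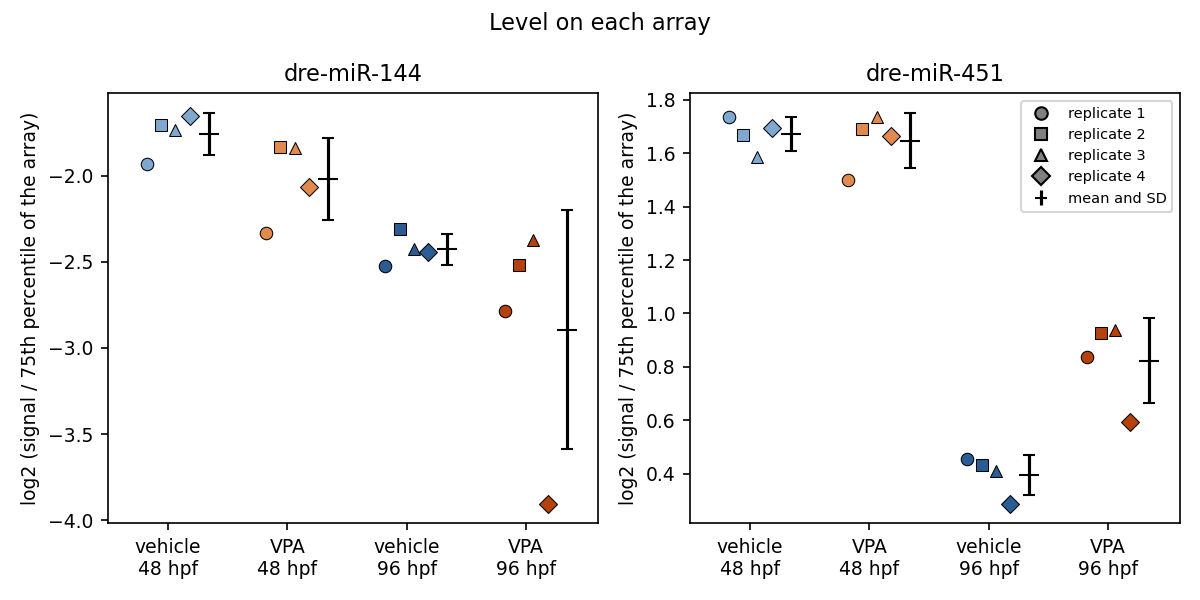
Level of miR-144 (left) and miR-451 (right) on each of the 16 arrays, as log2 of the multiple of the array's 75th percentile; points are arrays and bars are group mean and SD, n = 4. The VPA arrays at 96 hpf lie above the vehicle arrays for miR-451, and for miR-144 replicate 4 of that group sits near the floor.

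The first question was what VPA did at 48 hpf. The change of miR-144 was -0.26 ± 0.24 (SE, 95% interval -0.77 to 0.25, limma adjusted p = 0.433) and that of miR-451 -0.02 ± 0.08 (-0.19 to 0.14, adjusted p = 0.857). Thus 0 of the 2 members passed in a comparison in which 29.2% of tested miRNAs did. With the values scaled as here, the intervals leave room for a fall of miR-144 by as much as 0.77. For miR-451 they leave room for a change of at most 0.19 either way. The shorter probes gave -0.37 and -0.05. With normexp background correction miR-451 was at -0.24 (limma adjusted p = 0.183). In the unscaled deposited intensities it was at -0.46 (limma adjusted p = 0.947), where the median of all tested miRNAs was -0.31. On 3 of the 4 VPA arrays, replicates 1 to 3, miR-144 lay only 1.65, 1.83 and 1.66 times above the dimmest signal called well above background. Adjustment was over all 178 tested names here and in every limma p of the main fit that follows. In fits with other processing or with arrays left out, it was over the names that the fit tested.

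At 96 hpf miR-451 rose in VPA embryos by 0.43 ± 0.08 (1.34-fold, 95% interval 0.27 to 0.59, limma adjusted p = 0.000501). It was higher on 4 of 4 VPA arrays than on any vehicle array, and ranked 2nd among the rises of the 178. Of tested miRNAs 32.6% were called at this age and 31.5% had groups that did not overlap, 14.0% called higher. miR-144 moved to -0.47 ± 0.24 (interval -0.98 to 0.04) and missed the threshold (limma adjusted p = 0.152), so 1 of the 2 was called. The shorter probes gave 0.36 for miR-451 and -0.39 for miR-144. Per replicate number the VPA minus vehicle difference of miR-451 was 0.39, 0.49, 0.53 and 0.30, all up, whereas miR-144 gave -0.26, -0.21, 0.05 and -1.46. Without VPA at 96 hpf replicate 4 miR-144 shrank to -0.13 (limma adjusted p = 0.409) and miR-451 grew to 0.50 (limma adjusted p = 1.14e-05). Without VPA at 96 hpf replicate 3 miR-144 passed at -0.64 (limma adjusted p = 0.0467). With normexp background correction the change of miR-451 stayed at 0.43 but did not pass (limma adjusted p = 0.172), as held for all tested miRNAs, of which 0 passed.

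The VPA effects at both ages were then set against each other. For miR-451 the effect at 96 hpf exceeded that at 48 hpf by 0.45 ± 0.11 (limma adjusted p = 0.00935), a difference that 12.9% of tested miRNAs passed, 3.93% upward. For miR-144 the difference was -0.21 ± 0.34 (adjusted p = 0.758), and it was 0.13 without VPA at 96 hpf replicate 4. With normexp the difference of miR-451 was 0.67 and did not pass (limma adjusted p = 0.140), where 2 of all tested miRNAs did.

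**Figure D2:**
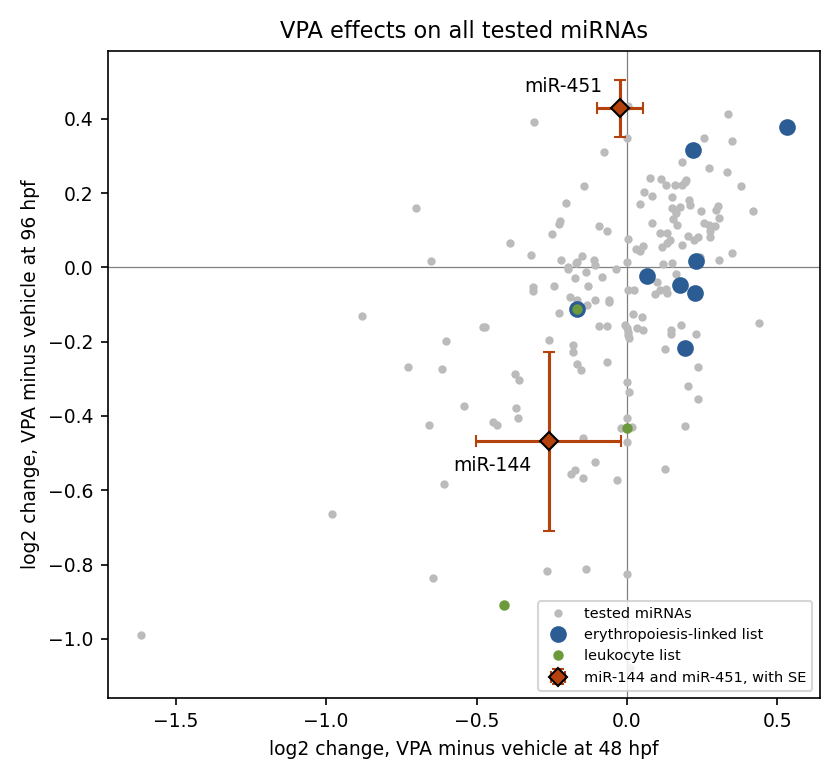
Log2 change with VPA at 96 hpf against that at 48 hpf for all tested miRNAs, with miR-144 and miR-451 marked and their bars showing SE. Coloured points are the red cell formation and white blood cell lists described below. Of the members' 95% intervals at the 2 ages, which are not drawn, only that of miR-451 at 96 hpf excludes 0.

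With age both miRNAs fell. In vehicle embryos miR-144 was 1.59-fold lower at 96 hpf than at 48 hpf (log2 change -0.67 ± 0.24, limma adjusted p = 0.0184) and miR-451 2.42-fold lower (-1.28 ± 0.08, adjusted p = 4.01e-10), the 6th largest fall of the 178. In VPA embryos the falls were 1.84-fold for miR-144 (-0.88 ± 0.24, limma adjusted p = 0.00335) and 1.77-fold for miR-451 (-0.82 ± 0.08, adjusted p = 9.98e-08). Each of the 4 had groups that did not overlap. Most of the array moved too, since 80.3% of tested miRNAs were called in vehicle embryos and 77.5% with VPA, 34.3% and 36.0% lower. The groups did not overlap for 82.6% and 70.8%. All 48 hpf arrays were on slide 1 and all 96 hpf arrays on slide 2, so age and slide cannot be told apart. The falls are relative to the array's 75th percentile, which was 897 to 1220 intensity units on vehicle arrays at 48 hpf and 1956 to 2406 at 96 hpf. In the unscaled deposited intensities the median of all tested miRNAs rose by 1.0 in vehicle and 1.501 in VPA embryos, and miR-144 turned to 0.27 and 0.69 and miR-451 to -0.34 and 0.78. Against that median the changes were -0.73 and -0.81 for miR-144 and -1.34 and -0.72 for miR-451. Those of the scaled values were -0.79 and -0.90, and -1.39 and -0.85. A factor common to an array cancels against the median, so this closeness is no check of the scaling. With normexp background correction they were -0.56 and -0.91, and -1.33 and -0.27. In embryo RNA, fewer red cells, less of a miRNA per red cell and a rise of the array's other signal cannot be told apart.

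A scale factor common to an array cancels in the ratio of the pair where both lie above the floor, but quantile normalization can alter it. On VPA at 96 hpf replicate 4 the floor entered the ratio, since miR-144 read 0.0668 with it and 0.0611 without. The VPA difference of the log2 ratio at 96 hpf was 0.90 scaled and 0.93 in unscaled values. In vehicle embryos at 48 hpf miR-451 over miR-144 was 12.7, 10.4, 10.01 and 10.2, and in VPA embryos 14.3, 11.5, 11.9 and 13.3. At 96 hpf it was 7.89, 6.70, 7.14 and 6.65 in vehicle and 12.3, 10.9, 9.92 and 22.6 in VPA embryos. The vehicle arrays at 96 hpf were the lowest of all 16. Of the VPA arrays of that age, replicates 1 and 2 lay within the range of the 48 hpf arrays, replicate 3 just under it and replicate 4 far above. Only the change of a ratio is read here, since its size depends on the probes. The mean log2 ratio of vehicle arrays was 3.43 ± 0.16 (SD, n = 4) at 48 hpf and 2.82 ± 0.11 at 96 hpf, and that of VPA arrays 3.67 ± 0.14 and 3.72 ± 0.53.

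VPA raised the ratio 1.86-fold at 96 hpf (log2 difference 0.90, exact two-sided permutation p = 0.0286, the smallest that 4 arrays against 4 allow, and 0.0429 adjusted over the 3 comparisons of the ratio). The difference was above 0 in each of the 4 replicate numbers, at 0.65, 0.70, 0.47 and 1.76. At 48 hpf the ratio differed by 0.24 (exact two-sided permutation p = 0.0857, also adjusted) and the groups overlapped. In vehicle embryos it was 1.52-fold lower at 96 than at 48 hpf (exact two-sided permutation p = 0.0286, adjusted 0.0429), but with quantile normalization the log2 change went from -0.61 to -0.12 (exact permutation p = 0.286). In VPA embryos it differed by 0.05 between ages (exact two-sided permutation p = 0.943), a comparison added after the values were seen. Whether the effect on the ratio differs between ages was not tested. Replicate numbers paired the arrays at 96 hpf, and within pairs the exact permutation p was 0.125, the smallest that 4 pairs allow. Without VPA at 96 hpf replicate 4 the difference was 0.64 (exact permutation p = 0.0286), and leaving out any 1 vehicle array of that age gave a p of 0.0571.

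**Figure D3:**
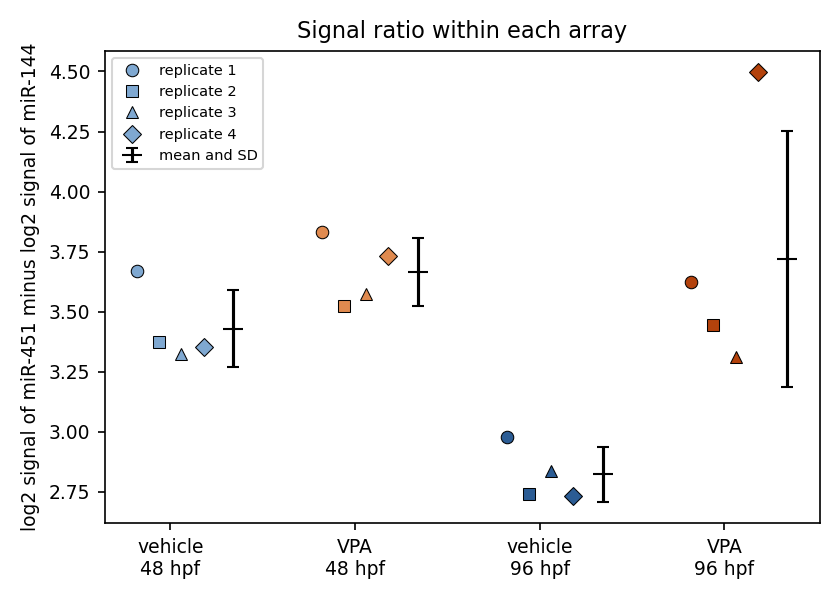
Log2 of miR-451 over miR-144 within each array, by group; points are arrays, bars group mean and SD, n = 4. The 4 vehicle arrays at 96 hpf are the lowest, and VPA replicate 4 of that age is the highest of the 16.

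Replicate 4 of the VPA group at 96 hpf was the brightest array, with a 75th percentile of 6179 intensity units against 1956 to 2406 in vehicle embryos of that age and 1249, 1465 and 3415 on the other VPA arrays. On it miR-144 lay 1.34 (log2) below the mean of those other 3, 2nd lowest of the 178, where 12 lay at or below -1. miR-451 lay 0.31 below, 45th lowest. On replicate 3 miR-144 lay 0.69 above the mean of the other 3 VPA arrays, replicate 4 among them, and 0.28 above the mean of replicates 1 and 2 alone. The deviation of a miRNA went with the G+C content of its probe. Over the 178 miRNAs the Spearman correlation was 0.423 on replicate 4 and -0.678 on replicate 3, against -0.124 and -0.168 on replicates 1 and 2, given as a description because all points share an array. Without replicate 4 it was -0.583 on replicate 3. Other groups held tilted arrays too, vehicle at 48 hpf replicate 2 at -0.452 and VPA at 48 hpf replicate 1 at 0.348, and the remaining arrays lay between -0.258 and 0.233. The miR-144 probe has 30.0% G+C and the miR-451 probe 36.4%, where the median of tested probes is 46.9%, and 2 and 23 other tested probes are at or below them. What this contributes to the change of either miRNA was not tested. All 4 vehicle arrays of a slide lie in column 1 and all VPA arrays in column 2, and treatment cannot be told apart from slide column.

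**Figure D4:**
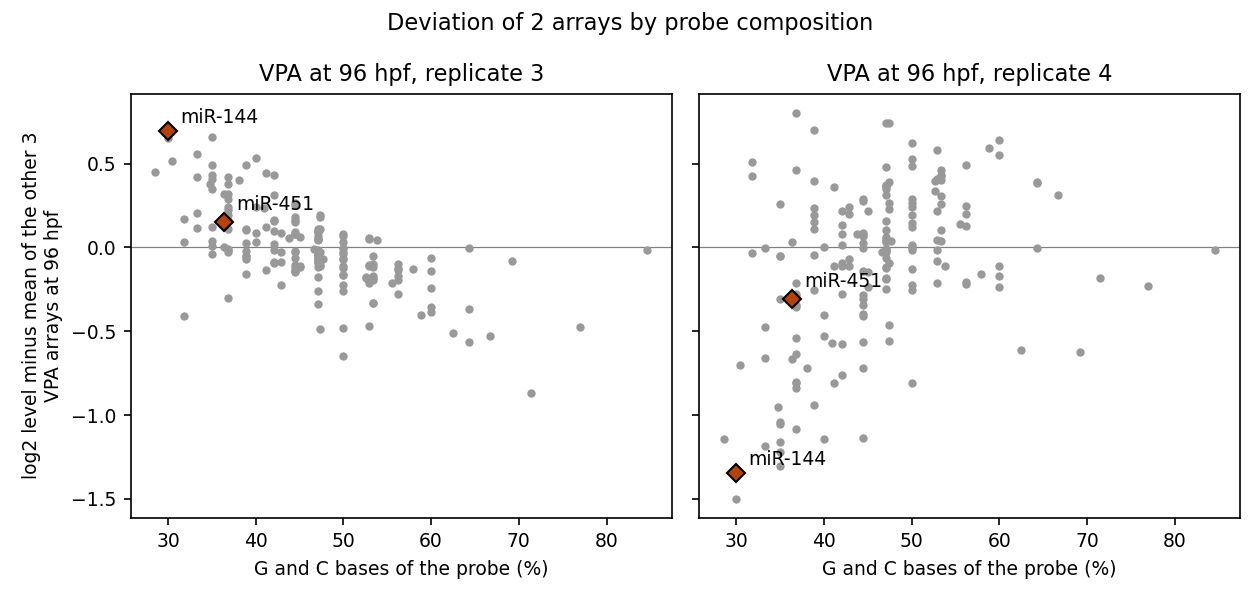
Deviation of each tested miRNA on a VPA array at 96 hpf from the mean of the other 3 (log2), against the G+C content of its probe in percent; one panel per replicate, miR-144 and miR-451 marked. The points tilt upward on replicate 4 (Spearman 0.423) and downward on replicate 3 (-0.678).

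Other miRNAs linked to red cell formation were read from a list of 10, chosen with earlier results of these data known. Its members miR-150 and miR-155 were well above background on 0 arrays, which leaves 8. At 48 hpf 5 of the 8 were higher with VPA and 0 lower, with a median of 0.21 against 0.00 over all 178, of which 16.3% were called higher. They were miR-16a and miR-16b (0.53 and 0.22), miR-15a at 0.23, miR-221 at 0.23 and the endothelial miR-126 at 0.17. With the 75th percentile taken over probes detected on all arrays this count was 2, where 12 of all tested miRNAs were higher against 29 as reported. With quantile normalization it was 3 where 23 of all were, with normexp 1 where 2 were, and in unscaled values 0 where 0 were. The unscaled median of the list was -0.23. These settings were applied to the lists after their values were seen. At 96 hpf 2 of the 8 were higher and 0 lower, miR-16a at 0.38 and miR-16b at 0.32, where 14.0% of all were called higher, and the median of -0.04 was near the -0.03 of all. Quantile normalization gave 3 higher where 35 of all were, against 25 as reported. Normexp (miR-16a at 0.15) and unscaled values gave 0 where 0 of all were. Without VPA at 96 hpf replicate 4 the count was 2 higher and 2 lower, and leaving out any 1 array 40 to 65 of all passed. The VPA effect differed between ages for 1 of the 8, miR-221 (-0.30, limma adjusted p = 0.0156), where 8.99% of all tested had a lower effect at 96 hpf. That call was lost with every other scaling and with normexp, and in unscaled values the difference was 0.37. Of all tested, 23 passed with scaling to probes detected on all arrays, 19 with quantile normalization, 2 with normexp and 0 unscaled. Without VPA at 96 hpf replicate 4 the count was 2, where 44 of all passed against 23 as reported. With age in vehicle embryos 5 of the 8 were lower, where 61 of all 178 were, and 2 higher, where 82 were. Calls in either direction were a share near the 80.3% of all tested. The median was -0.25 against 0.12 over all 178, again relative to the 75th percentile since the unscaled median was 0.69. In unscaled values 0 of the 8 were lower with age, where 4 of all were. miR-451 thus was called alongside the miR-16 pair at 96 hpf, while at 48 hpf the list had 5 calls and neither member of the cluster.

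White blood cell miRNAs were read as a second blood list of 8, which shares miR-150, miR-155 and miR-223 with the red cell list. Of these 3 could be tested, and miR-142a-5p, miR-142b-5p, miR-150 and miR-155 were well above background on 0 arrays. At 96 hpf miR-142a-3p, a miRNA of blood leukocytes, fell with VPA by 0.91 (limma adjusted p = 0.000584). The inflammation-linked miR-146a fell by 0.43 (limma adjusted p = 0.0432), so 2 of the 3 were lower where 18.5% of all were. On VPA at 96 hpf replicate 4 miR-142a-3p deviated by -0.95 from the mean of the other VPA arrays of that age, and miR-146a by 0.80. Without that array their changes were -0.67 and -0.63 (limma adjusted p = 2.8e-06 and 7.51e-05). The remaining tested member, miR-223, was at -0.11 (limma adjusted p = 0.399), and at 0.08 with quantile normalization and 0.12 unscaled. At 48 hpf miR-142a-3p was at -0.41 and did not pass (limma adjusted p = 0.0713). It did without VPA at 96 hpf replicate 4 (limma adjusted p = 0.000138) and with scaling to probes detected on every array (limma adjusted p = 0.0391). Quantile normalization gave miR-142a-3p at -0.22 (limma adjusted p = 0.317) and unscaled values -0.72, neither past the threshold. With normexp its change at 48 hpf turned to 0.32 and did not pass, and all 3 tested members of the list were above 0. At 48 hpf miR-146a was well above background on 1 VPA array and 0 vehicle arrays. The difference between ages did not pass for miR-142a-3p or miR-146a (limma adjusted p = 0.162 and 0.195), though it did for miR-146a without VPA at 96 hpf replicate 4 (limma adjusted p = 0.00194). The summed level of the list was lower in VPA embryos at both ages, 0.828 to 0.877 against 0.742 to 0.799 at 48 hpf and 0.955 to 1.06 against 0.795 to 0.854 at 96 hpf, vehicle first. Neither pair of ranges overlapped, as held for 41.0% and 31.5% of single miRNAs. The sum is of the values as scaled here and includes the members that were too dim to test. At 48 hpf 0 of the 3 tested members were called. At 96 hpf the count was 1 lower with quantile normalization, where 25 of all were lower, and 1 with scaling to probes detected on every array, where 31 were. It was 0 with normexp or unscaled values, where 0 of all were lower. The endothelial list, miR-126 and its opposite arm miR-126*, had 1 of 2 higher at 48 hpf, miR-126, where 16.3% of all were. That call was lost with every other scaling and with normexp. Its sums at 48 hpf were 2.88 to 3.13 in vehicle and 3.20 to 3.71 in VPA embryos and did not overlap. At 96 hpf 0 of 2 were called where 32.6% of all were, with sums of 3.23 to 3.28 and 2.84 to 3.30. The liver miRNA miR-122 changed by -0.54 at 48 hpf (limma adjusted p = 0.00011) and by -0.37 at 96 hpf (limma adjusted p = 0.00108). It was well above background on 2 of the 4 VPA arrays at 48 hpf, and with normexp its changes were 0.31 and -0.34, neither past the threshold. The skeletal muscle list (miR-1, miR-206 and miR-133a) had 1 of 3 higher with VPA at 48 hpf, where 16.3% of all were. This call, miR-206 at 0.42 (limma adjusted p = 0.0483), was lost with every other scaling and normexp. The neural list (miR-9 and miR-124) had 1 of 2 lower, miR-124 at -0.47 (limma adjusted p = 0.000293), where 23 of all 178 were called lower. At 96 hpf 0 of either list were called against 32.6% of all, though quantile normalization called miR-206 and miR-124. Without VPA at 96 hpf replicate 4 miR-206 was called at 0.35 (limma adjusted p = 0.00423) and miR-9 at 0.20 (limma adjusted p = 0.0033). Leaving out any 1 array, 40 to 65 of all passed at that age. The part of these markers in the rise of miR-451 was not tested.

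Profiles over the 16 arrays were compared by the root mean square difference of centred log2 levels, 0 for identical profiles, among 177 other tested miRNAs. The nearest to miR-451 were miR-363 (0.146), miR-18a (0.148) and miR-15b (0.166), and the nearest to miR-144 were miR-153c (0.102), miR-19a (0.189) and miR-18b (0.233). The clustered partner was farther, at 0.437, with miR-451 27th nearest to miR-144 and miR-144 54th nearest to miR-451. VPA at 96 hpf replicate 4 enters these distances. Its log2 deviation from the mean of the other VPA arrays of that age was -1.34 for miR-144, -1.22 for miR-153c and -1.19 for miR-19a, but -0.31 for miR-451. No distance is given without that array.

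**Figure D5:**
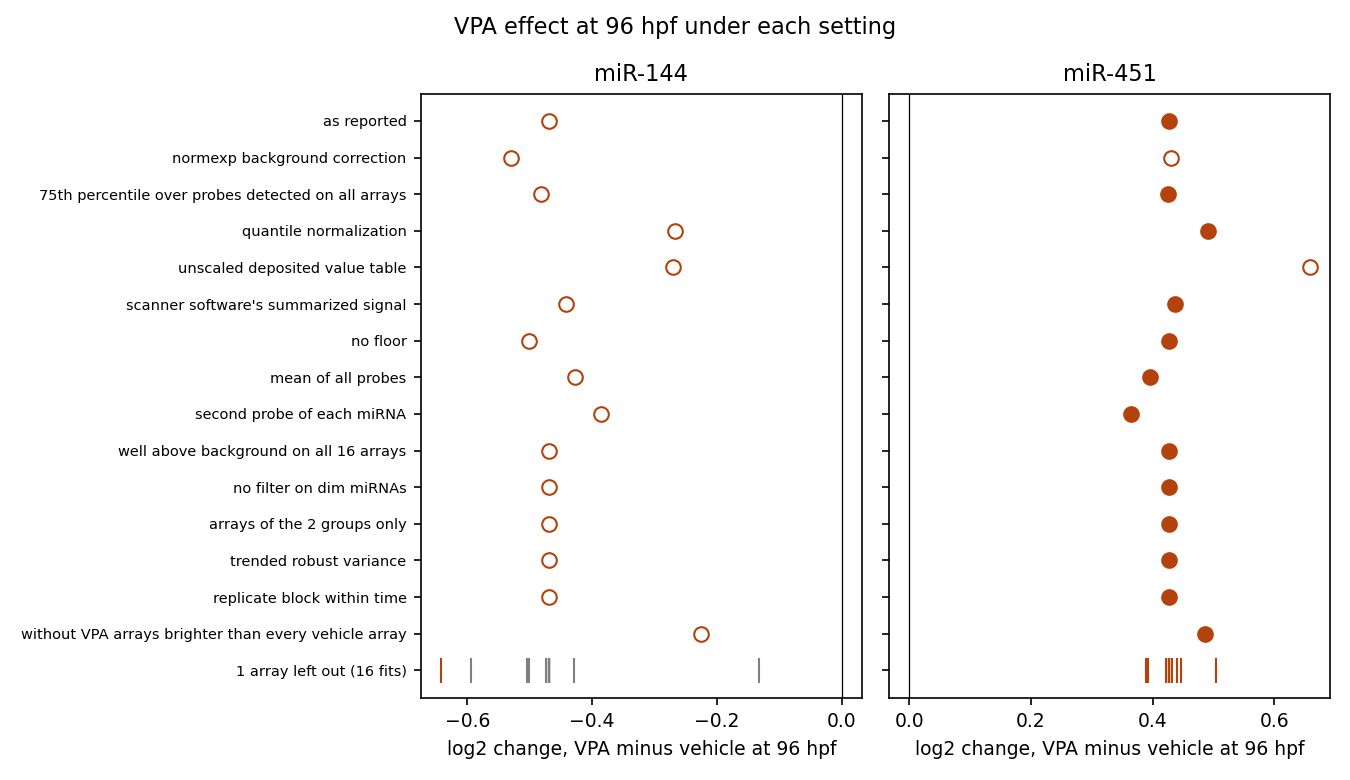
Log2 change of each member for VPA at 96 hpf as reported, under each processing alternative and with 1 array left out. Filled points passed the threshold. For miR-451 every value lies above 0. For miR-144 every value lies below 0, and only 1 passed, that without VPA at 96 hpf replicate 3.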

How the data were processed

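The deposited scanner files of 16 one-colour Cy3 arrays give spot intensity, already corrected for background and spatial trend on each array and not scaled between arrays, per the file headers. The scanner software was Agilent Feature Extraction, version 9.5.3.1 in the headers and 9.5 per the submitters' processing notes. Deposited flag columns of 0 or 1 mark spots well above background, saturated or outlying. The deposited value table holds the same intensity, unscaled.

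Control spots and outlier spots (3.32% to 8.07% an array) were left out. Signal was divided by the array's 75th percentile over non-control spots, floored at 0.0648 (log2 -3.95), logged and averaged over spots. The brightest probe stood for a miRNA, which was tested if 3 or more of the 4 arrays in some group had most spots well above background. Group means were fitted to all 16 arrays with limma 3.58.1 in R 4.3.3 (lmFit, eBayes) and adjusted by Benjamini-Hochberg over 178 miRNAs at 0.05. The fit was tested on simulated data. Array number limits the precision.

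Members and lists were chosen with earlier results of these data known. The named miRNAs are the members, the 3 nearest profiles of each, and list members, of which those called only with age are not all named. Same-numbered vehicle and VPA arrays had residual correlations of 0.286, 0.285, 0.273 and 0.244 at 96 hpf and 0.0977, -0.184, 0.324 and -0.151 at 48 hpf, so numbers paired arrays at 96 hpf only. The replicate number is also the row of the array on its slide, so a shared origin and slide row cannot be told apart. Alternatives covered background correction, scaling, floor, filter, probe, arrays left out and a replicate block.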

Additional observations from a re-analysis of the deposited data

Results flagged for a closer look

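The ratio of miR-451 to miR-144 on vehicle at 48 hpf replicate 1 (12.7) stood apart from the other vehicle arrays of that age (10.01 to 10.4). Its gap to the nearest was 0.852 of the range of the group, above the 95% critical value for 4 arrays. Chance sets about 1 in 20 groups apart in this way. The 2 miRNAs and their ratio were examined in each of the 4 groups, which makes 12 sets of values that are not independent.

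The VPA effect on miR-451 differed between ages by 0.45 (limma adjusted p = 0.00935), being -0.02 at 48 hpf and 0.43 at 96 hpf.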

How the results depend on the processing

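The rise of miR-451 with VPA at 96 hpf was above 0 under every alternative run, and passed in all but normexp background correction and the unscaled table. With normexp (offset 50) it was 0.43 (limma adjusted p = 0.172), its difference between ages 0.67 (0.140), miR-144 with VPA at 48 hpf 0.19, miR-144 with age in vehicle -0.45 (0.232), and the ratio at 48 hpf -0.44. In the unscaled table miR-451 with VPA at 96 hpf was 0.66 (limma adjusted p = 0.980), its difference 1.12 (0.765) and its age change -0.34 (0.593) in vehicle and 0.78 in VPA embryos, and miR-144 gave 0.43 for the difference and 0.27 and 0.69 for age. With the scanner's summarized signal miR-451 at 48 hpf was 0.0027 and miR-144 with age in vehicle -0.55 (limma adjusted p = 0.0665). Quantile normalization gave -0.12 for the ratio with age (exact permutation p = 0.286). With VPA arrays left out that outshone all vehicle arrays of their age, the ratio at 96 hpf was 0.71 (exact permutation p = 0.0667, the smallest possible) and the difference of miR-144 0.019. The causes were not tested.

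With the replicate block the ratio at 96 hpf was 0.90 (exact permutation p = 0.125, the smallest that pairs allow), miR-451 0.43 (limma adjusted p = 0.00191) and its difference 0.45 (0.0182). The block changed no other call of the members.

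Leaving out 1 array at a time, VPA at 48 hpf gave -0.32 to -0.16 for miR-144 and -0.054 to 0.025 for miR-451, positive without VPA at 48 hpf replicate 1. VPA at 96 hpf gave -0.64 to -0.13 and 0.39 to 0.50, the difference -0.38 to 0.13 and 0.40 to 0.53, age in vehicle -0.73 to -0.63 and -1.30 to -1.24, and age in VPA -1.05 to -0.54 and -0.87 to -0.75. The ratio gave 0.18 to 0.32 at 48 hpf, 0.64 to 1.03 at 96 hpf and -0.66 to -0.53 with age.

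Of all miRNAs 52 passed at 48 hpf, 58 at 96 hpf, 23 for the difference, 143 with age in vehicle and 138 in VPA embryos. Leaving out 1 array gave 38 to 83, 40 to 65, 17 to 44 and 130 to 150 for the first 4. Normexp gave 5, 0 (20 unadjusted), 2 and 86 for the first 4, and the unscaled values 0 (9 unadjusted), 0 (0), 0 (1) and 78, by limma. At 96 hpf the second probe gave 35, the filter on all 16 arrays 31 (7 for the difference) and the 2 groups alone 37. Without the brighter VPA arrays 81 passed at 48 hpf and 52 for the difference, and without VPA at 96 hpf replicate 4 83 and 44. Signal over background limits miR-144, at 1.65 to 8.10 times the dimmest detected signal.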
